A study of Mus musculus with 6 samples.

Results

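Transcripts of 10 genes that mark splenic macrophages were followed in 6 RNA sequencing libraries of sorted germinal centre B cells. The genes were chosen by symbol from a list of macrophage markers (Lyz2, Cd5l, Hmox1, Vcam1, Csf1r, C1qa, C1qb, C1qc, Slc40a1 and Spic), and each matched 1 row of the 55401 genes in the count tables. All libraries came from spleens of wild-type (WT) C57BL/6 mice that had been given sheep red blood cells (SRBC) by intraperitoneal injection, were challenged with them again on day 5 and were killed on day 12. The cells were separated by flow cytometry into a DN and a DP subset of 3 libraries each. The labels do not say which markers DN and DP stand for, and give no age. The design text says that 3 mice each gave both subsets, so the groups share animals. No label says which libraries came from the same mouse. The p-values below reflect the variation among these libraries and no more, and that variation may be technical. The question was how far transcripts of other spleen cells, here macrophages, were present in the sorted B cells and whether they differed between DP and DN.

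Macrophages of the splenic red pulp engulf aged red blood cells and recycle their iron. Haem oxygenase breaks down the haem, ferroportin returns the iron to the blood, and the transcription factor SPI-C is needed for these cells to form. Other macrophages of the spleen take up dying B cells inside germinal centres, and complement C1q, which macrophages produce, tags such debris. Germinal centre B cells are not known as a main source of these proteins.

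Macrophage transcripts were rare in every library and rarer in DP. The 10 genes together gave 396, 320 and 291 counts in DN replicates 1, 2 and 3, and 210, 276 and 259 counts in the DP replicates, although the DP libraries were deeper. Levels are given in CPM, the counts per 1000000 gene counts of a library, with the library total adjusted for composition by TMM factors. The summed level was 31.1, 33.5 and 29.8 CPM in DN and 12.4, 14.3 and 15.8 CPM in DP. The groups did not overlap, and the means were 31.5 ± 1.89 CPM for DN and 14.2 ± 1.68 CPM for DP (SD, n = 3), a ratio of 2.22. CPM are shares of a library. In bulk RNA, fewer cells of a type, less RNA per such cell and more RNA from the sorted cells cannot be told apart. Which cells these reads came from was not tested.

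Each gene was compared with edgeR's quasi-likelihood test, with p-values adjusted over all genes tested (Benjamini-Hochberg). The usual filter on low counts kept 7 of the 10 genes and left out C1qa, C1qc and Spic. C1qb and Slc40a1 passed it through their DN libraries alone, so that a gene equally low in both groups would not have been tested. Without a filter all 10 were tested, and 7 were lower in DP at an adjusted p under 0.05, beside 19.3% of 21738 genes. In that fit 22.6% of genes were higher in DP, but none of these 10. All 10 fitted changes were negative, so none was higher at an unadjusted p under 0.05 in edgeR either, and none of those kept by the filter was called higher by DESeq2 or limma-voom. Many genes in the unfiltered fit have too few counts to be called, whereas the 10 genes had 42 to 418 counts summed over the libraries. The 10 genes were also chosen with earlier results of these data known. Their share beside that of all genes is therefore a description and no test of the set. Among the 11296 genes kept by the filter, 37.6% were lower in DP and 38.3% higher (75.9% in either direction), a background against which a single lower gene is common. The median log2 fold change was -0.93 over the 10 genes without a filter, beside 0.06 over all genes of that fit. Of the 10 genes, 8 lay in DP wholly below DN, which 23.6% of genes with at least 1 count and 38.0% of the filtered genes did too.

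**Figure D1:**
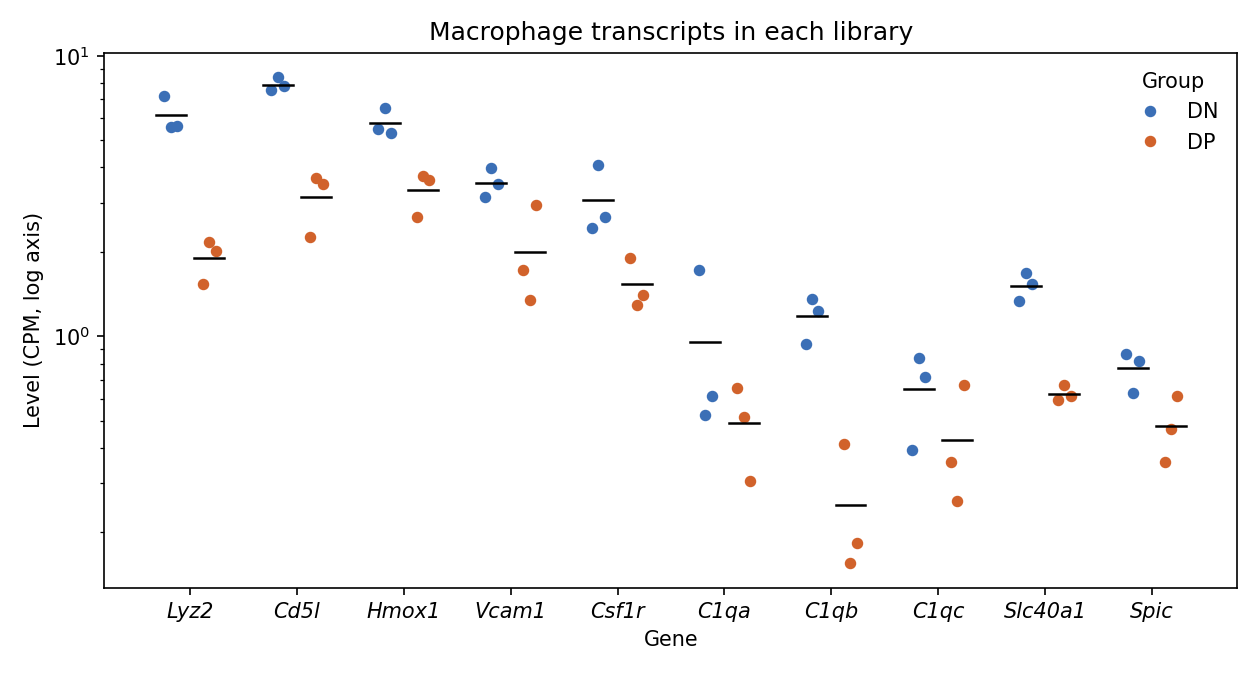
Level of each macrophage gene in CPM on a log axis, with 1 point per library (3 DN, 3 DP) and a line at the group mean. The 3 DP libraries lie wholly below the 3 DN libraries for 8 of the 10 genes, while C1qa and C1qc overlap.

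Lyz2 and Cd5l were the macrophage transcripts with the clearest difference. Lyz2 encodes lysozyme M, a bacteriolytic enzyme of macrophages, monocytes and neutrophils. It had 92, 53 and 55 counts in DN and 26, 42 and 33 in DP, which corresponds to 7.22, 5.56 and 5.64 CPM against 1.54, 2.17 and 2.01 CPM. The highest DP library was thus well below the lowest DN library. Lyz2 fell by 1.69 ± 0.19 on the log2 scale (SE, n = 3 per group, edgeR adjusted p = 1.54e-11). The gene lies on chromosome 10 from 117277331 to 117282321 (mm10, minus strand). Its near-identical neighbour Lyz1 had 1 count in 6 libraries, so that few reads were assigned to the copy. Cd5l encodes a secreted scavenger protein that supports macrophage survival. It had 96, 80 and 76 counts in DN and 38, 71 and 57 in DP, or 7.54, 8.39 and 7.79 CPM against 2.25, 3.67 and 3.48 CPM. Among the 10 genes it was the most abundant by CPM in DN, where its 3 libraries lay close together (7.90 ± 0.437 CPM, SD, n = 3). Cd5l fell by 1.32 ± 0.17 (edgeR adjusted p = 2.63e-10).

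Of the 3 genes tied to haem and iron recycling, Hmox1 and Slc40a1 fell in DP and Spic was not called. Hmox1, the inducible haem oxygenase, had 70, 62 and 52 counts in DN and 45, 72 and 59 in DP. Its levels were 5.49, 6.50 and 5.33 CPM in DN and 2.67, 3.73 and 3.60 CPM in DP. These ranges did not overlap, although raw counts did because the DP libraries were deeper. Hmox1 fell by 0.78 ± 0.18 (edgeR adjusted p = 7.14e-05). Slc40a1, which encodes the iron exporter ferroportin, had 17, 16 and 15 counts in DN and 10, 13 and 10 in DP. At 1.33, 1.68 and 1.54 CPM against 0.593, 0.673 and 0.610 CPM its groups stood apart. The DP spread of 0.0420 CPM was below the 0.189 CPM that counting alone would give. Slc40a1 fell by 1.25 ± 0.34 (edgeR adjusted p = 0.00103), having passed the filter through its DN libraries alone. Without a filter it fell by 1.17 ± 0.37 (edgeR adjusted p = 0.00445). Spic encodes the ETS-family factor SPI-C, which is also made at some stages of B cell development. It had 11, 6 and 8 counts in DN and 6, 9 and 10 in DP, or 0.863, 0.629 and 0.820 CPM against 0.356, 0.466 and 0.610 CPM. The groups came close without overlapping, but the difference was not detectable at this depth (-0.63 ± 0.48 without a filter, edgeR adjusted p = 0.329).

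The C1q subunits did not all give a call. C1q, the first component of the classical complement pathway, is built from A, B and C chains, and their genes sit side by side within 18675 bases on the minus strand of chromosome 4 (136880129 to 136898803, mm10). C1qb had 12, 13 and 12 counts in DN and 7, 3 and 3 in DP, where 2 libraries sat at the floor of 3 counts. Its levels were 0.942, 1.36 and 1.23 CPM against 0.415, 0.155 and 0.183 CPM. C1qb fell by 2.19 ± 0.46 (edgeR adjusted p = 2.54e-05), having passed the filter through its DN libraries alone. Without a filter C1qb fell by 2.12 ± 0.50 (edgeR adjusted p = 7.73e-05). C1qa had 22, 5 and 6 counts in DN and 11, 10 and 5 in DP. DN replicate 1, at 1.73 CPM, stood above all other libraries, whose levels lay between 0.305 and 0.652 CPM in both groups. The DN spread of C1qa was 0.670 CPM, against the 0.291 CPM that counting alone would give. Without a filter its change was -0.96 ± 0.44 (edgeR adjusted p = 0.0683), and without DN replicate 1 it was -0.13 (adjusted p = 0.874). C1qc had 5, 8 and 7 counts in DN and 6, 5 and 11 in DP. Its groups overlapped, and its change was -0.50 ± 0.53 (edgeR adjusted p = 0.486 without a filter). The difference between the subunits was not tested.

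Of the 10 genes, 5 had an entry in the RefSeq promoter table (GRCm38.p6, the mm10 build). The windows of Lyz2, Cd5l and C1qb are shown because these were the 3 called genes among them, each as the 250 bases before the annotated start, 5′ to 3′ on the gene's strand. Capitals mark GAGGAA and GGAAGT, which form the core recognised by the macrophage and B cell factor PU.1 and its relatives, searched on both strands. The letters of the 2 motifs can overlap.

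Lyz2, chr10:117282273-117282522, minus strand: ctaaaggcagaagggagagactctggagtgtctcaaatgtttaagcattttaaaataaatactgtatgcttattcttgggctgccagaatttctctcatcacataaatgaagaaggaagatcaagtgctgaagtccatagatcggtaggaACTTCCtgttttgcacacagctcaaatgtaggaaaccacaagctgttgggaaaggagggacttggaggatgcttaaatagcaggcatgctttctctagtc
Cd5l, chr3:87357631-87357880, plus strand: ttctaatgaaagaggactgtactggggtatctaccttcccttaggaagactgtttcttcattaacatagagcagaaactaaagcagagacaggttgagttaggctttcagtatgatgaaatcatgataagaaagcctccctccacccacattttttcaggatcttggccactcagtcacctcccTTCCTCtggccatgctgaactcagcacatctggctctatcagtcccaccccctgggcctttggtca
C1qb, chr4:136886201-136886450, minus strand: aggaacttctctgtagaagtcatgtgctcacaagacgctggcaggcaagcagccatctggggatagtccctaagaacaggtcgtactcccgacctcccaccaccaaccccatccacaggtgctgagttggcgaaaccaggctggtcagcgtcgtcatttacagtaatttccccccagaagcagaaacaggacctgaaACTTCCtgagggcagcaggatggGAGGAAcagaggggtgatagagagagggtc

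The Lyz2 window held GGAAGT once, 100 bases before the start, and the Cd5l window held GAGGAA once, 66 bases before it. The C1qb window held both, at 53 and 30 bases. At least 1 of the motifs was present in all 5 windows, those of C1qc and Spic included, and in 36.7% of the 32851 windows of this length in the table. GAGGAA was in 23.3% of windows and GGAAGT in 19.7%. The starts are those of RefSeq. By the gene positions used elsewhere here, the Lyz2 and C1qc windows reach into their genes and the Spic window lies within its gene. Such short matches are a description of the letters and show no binding.

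Csf1r and Vcam1, receptors at the cell surface, were both lower in DP. Csf1r encodes the receptor for the growth factors CSF1 and IL-34 on which most tissue macrophages depend. It had 31, 39 and 26 counts in DN and 32, 25 and 23 in DP, or 2.43, 4.09 and 2.66 CPM against 1.90, 1.29 and 1.40 CPM. DN replicate 2 was high, and the groups did not overlap. Csf1r fell by 0.98 ± 0.25 (edgeR adjusted p = 4.48e-04). Its exons share 873 bases with Hmgxb3 on the opposite strand, which went from 22.5 ± 1.36 to 35.4 ± 1.77 CPM (SD, n = 3), the other direction. The strand setting of the counting is not given in the sources used here, so reads from the shared stretch cannot be assigned with certainty. Vcam1 encodes an adhesion molecule of red pulp macrophages that follicular dendritic and other stromal cells carry as well. It had 40, 38 and 34 counts in DN and 29, 26 and 48 in DP, or 3.14, 3.98 and 3.48 CPM against 1.72, 1.35 and 2.93 CPM. DP replicate 3 came close to the lowest DN library. Vcam1 fell by 0.83 ± 0.24 (edgeR adjusted p = 0.00141).

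Pooled over libraries, the DP counts relative to DN, corrected for library size, ranged from 0.214 for C1qb to 0.670 for C1qc. The 95% exact counting interval was 0.240 to 0.393 for Lyz2, 0.328 to 0.490 for Cd5l and 0.471 to 0.721 for Hmox1. The intervals of Lyz2 and Hmox1 did not overlap, while those of C1qc (0.349 to 1.29) and Spic (0.336 to 1.11) included equality. That of C1qa (0.276 to 0.828) did not, but DN replicate 1 held 22 of its 33 DN counts. These intervals cover counting error only.

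**Figure D2:**
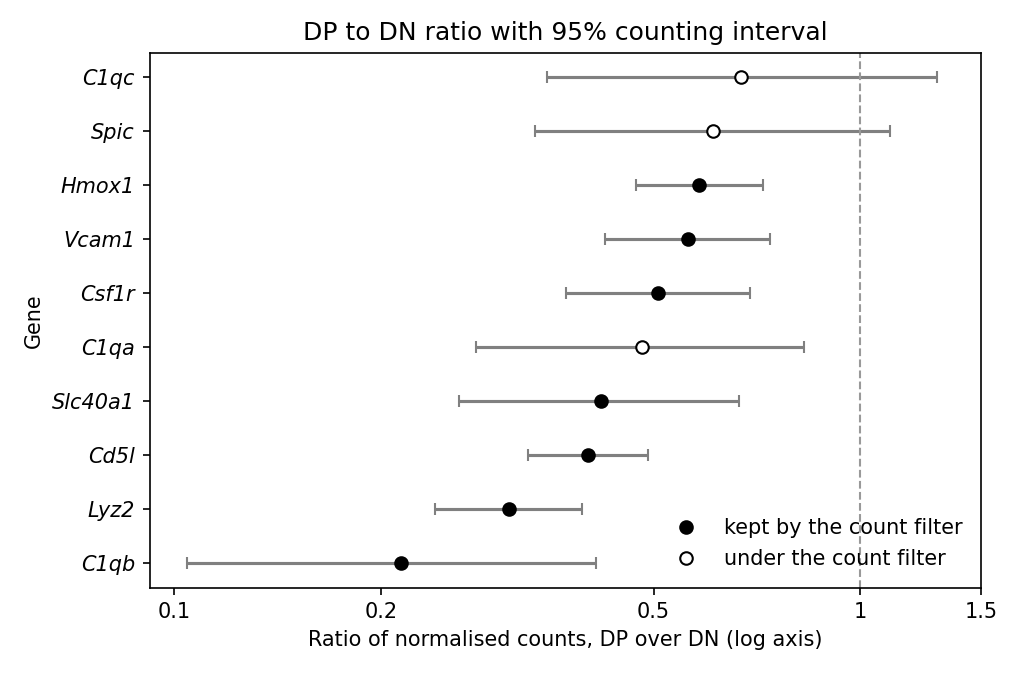
Ratio of normalised counts, DP over DN, pooled over 3 libraries per group, for each gene on a log axis with its 95% exact counting interval. Filled points are the genes kept by the count filter and open points those under it. All 10 ratios lie below 1, and the intervals of C1qc and Spic include 1. The intervals cover counting error only, and DN replicate 1 held 22 of the 33 DN counts of C1qa.

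The makeup of the macrophage transcript counts is given as a description. Lyz2 made up 23.2%, 16.6% and 18.9% of the counts of the 10 genes in the DN libraries and 12.4%, 15.2% and 12.7% in the DP libraries. Hmox1 made up 17.7%, 19.4% and 17.9% in DN and 21.4%, 26.1% and 22.8% in DP. Over these libraries the Lyz2 shares were lower in DP and the Hmox1 shares higher, with no overlap. Pooled, the share of Lyz2 was 19.9% in DN (95% exact binomial interval 17.4% to 22.5%) and 13.6% in DP (11.2% to 16.2%). That of Hmox1 was 18.3% (15.9% to 20.8%) and 23.6% (20.6% to 26.8%), with intervals that overlap. These intervals leave out the spread between libraries. The ratio of Lyz2 to Hmox1 counts, a pair chosen after its values were seen, was 1.31, 0.855 and 1.06 in DN and 0.578, 0.583 and 0.559 in DP (p = 0.1 by a two-sided exact permutation test, the lowest value possible with 3 libraries per group). The share of Cd5l, at 25.0% and 22.3%, had overlapping intervals too.

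**Figure D3:**
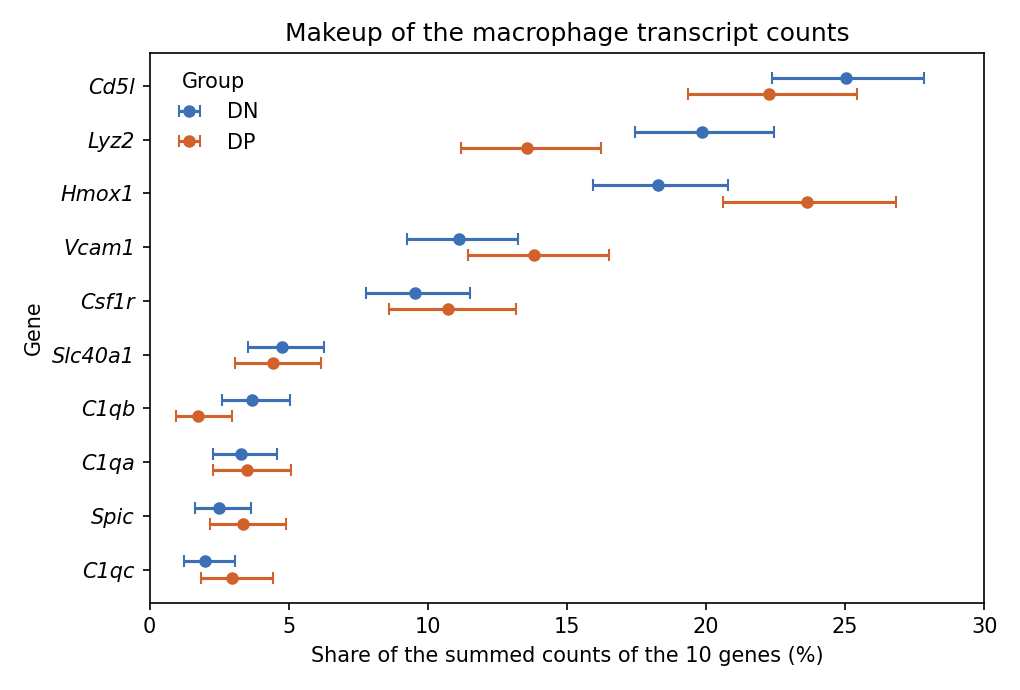
Share of each gene in the summed counts of the 10 macrophage genes (1007 counts in DN, 745 in DP), in percent, pooled over 3 libraries per group, with 95% exact binomial intervals. Intervals of DN and DP are apart for Lyz2 and overlap for the other 9 genes, at their ends for Hmox1.

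Per length of annotated exon, Lyz2, Cd5l and Hmox1 had the highest levels in both groups. The length is the union of all annotated exons of a gene, for example 9000 bases for Slc40a1 and 3841 for Spic. It can exceed the length of the transcript present in these cells, and the order below depends on it. In CPM per kilobase of exon, Lyz2 led in DN (4.66 ± 0.713, SD, n = 3), followed by Cd5l (3.88 ± 0.215) and Hmox1 (3.30 ± 0.362). Lyz2 was above Cd5l in all DN libraries, Cd5l and Hmox1 overlapped, and Hmox1 was separate from the next gene, C1qb (1.08 ± 0.198). In DP the highest were Hmox1 (1.90 ± 0.330), Cd5l (1.54 ± 0.378) and Lyz2 (1.45 ± 0.250), which did not differ beyond their spread, and all lay above C1qa (0.473 ± 0.168). Among the genes below, neighbours in the order overlapped in both groups, except that Slc40a1, the lowest at 0.0695 ± 0.00466 in DP, was separate from Spic (0.124 ± 0.0333). No library held the highest level of every gene in its group. DN replicate 2 was highest in DN for 7 of the 10 genes and DN replicate 1 for 3, while the DP replicates were highest for 3, 4 and 3.

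Other macrophage genes gave a mixed picture. Of 40 further macrophage and monocyte genes, 13 passed the filter, of which 8 were lower in DP and 2 higher, so that 10 of 13 were called beside 75.9% of all tested genes. The mannose receptor Mrc1 fell from 2.66 ± 0.382 to 0.657 ± 0.171 CPM (SD, n = 3), Fcna, a ficolin, from 2.29 ± 0.575 to 0.765 ± 0.195 CPM, and Adgre1, which encodes the F4/80 antigen, from 1.34 ± 0.0946 to 0.482 ± 0.217 CPM. Aif1 fell from 8.48 ± 0.433 to 2.38 ± 0.360 CPM. Spi1, the gene for PU.1, fell by 1.11 on the log2 scale and the pore-forming protein gene Mpeg1 by 0.42, but B cells express both. The lysosomal marker Cd68 rose from 2.16 ± 0.249 to 3.12 ± 0.361 CPM and properdin, Cfp, from 3.17 ± 0.757 to 9.78 ± 0.903 CPM. The scavenger receptor genes Cd163 (1.18 ± 0.402 and 0.730 ± 0.162 CPM) and Marco (2.03 ± 0.885 and 1.22 ± 0.470 CPM) were low in both groups. Marco passed only narrowly (edgeR adjusted p = 0.0493). Mrc1, Fcna, Adgre1, Cd68, Cd163 and Marco were named after their values were seen.

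Several of the 40 further macrophage and monocyte genes were not detected or nearly so. Clec4f, Vsig4, Trem2, Cd14 and Folr2 had 0 counts in all 6 libraries, which allows up to 3 counts per library, or 0.155 to 0.315 CPM. Tyrobp, the adaptor of many myeloid receptors, had 1, 2 and 3 counts in DN and 2, 1 and 0 in DP. Fcer1g, the Fc receptor gamma chain, had 6, 2 and 1 counts in DN and 2, 4 and 5 in DP. Among germinal centre macrophage receptors, Mertk had 4, 5 and 3 counts in DN and 5, 6 and 3 in DP, and Timd4 3, 4 and 7 against 3, 5 and 4. For none of these 4 was a difference detectable at this depth (edgeR adjusted p = 0.316 to 0.762 without a filter). Of the 27 genes of the list under the filter, only Fcgr3, Pparg, Lgals3 and Ly6c2 were called lower in DP in the unfiltered fit. In that fit 19.3% of all genes were called lower. These genes were named after their values were seen. Fcgr3 had 27 counts in DN and 13 in DP (edgeR adjusted p = 0.00635), and Pparg 12 and 4 (0.0455). Lgals3 and Ly6c2 each had 10 and 2 (0.0295 and 0.02996). Fcgr1 and Cd300ld had positive changes without a call (edgeR adjusted p = 0.865 and 0.492).

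Lists around the pathways of these markers held calls in both directions, beside 38.3% of all tested genes called higher and 37.6% lower. In iron and haem handling, 10 of 20 tested genes were higher in DP and 7 lower, with a median log2 change of -0.00048 beside 0.0061 over all tested genes. The ferritin heavy chain Fth1 fell from 310 ± 14.5 to 225 ± 6.76 CPM (SD, n = 3). The iron chaperones Pcbp1 and Pcbp2 rose by 0.93 and 0.65 on the log2 scale, and Txnrd1, a thioredoxin reductase, by 1.53. Blvrb, a biliverdin reductase abundant in erythroid cells, fell by 2.31, and Bach1, the haem-sensing repressor of Hmox1, fell by 0.55; both were named after their values were seen. In the complement list, 5 of 12 tested genes were higher and 6 lower. C1qbp, which encodes a mitochondrial protein first found as a C1q binder, rose from 50.2 ± 1.05 to 323 ± 5.21 CPM, and the chaperone calreticulin, Calr, rose by 1.21. The complement receptor Cr2 fell by 2.56, and the integrin chain Itgb2, at 168 ± 3.79 and 159 ± 3.19 CPM, was not called. The serine proteases that join C1q in the C1 complex were scarcely detected, with 2 counts of C1ra in DN and 5 in DP, and 5 of C1s1 in DN and 6 in DP. In the list around CSF1 receptor signalling and macrophage transcription factors, 2 of 11 tested genes were higher and 5 lower. Irf8 rose by 0.13, Spib fell by 0.64 and Runx1 by 0.79, all of them factors of B cells as well.

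Markers of the sorted cells and of other spleen cells were set beside these values. The germinal centre B cell list (11 genes, all tested) summed to 3487 to 3535 CPM in DN and 1718 to 1752 CPM in DP, with 10 genes lower and 1 higher. Its ratio of DN to DP was 2.02, beside 2.22 for the macrophage genes. The erythroid list summed to 63.6 to 73.7 CPM in DN and 16.2 to 18.5 CPM in DP (7 of 7 tested genes lower, ratio 4.03), and the neutrophil list to 4.08 to 5.66 and 0.889 to 1.5 CPM (ratio 4.20), with Ly6g at 0. Only 3 of 10 neutrophil genes were tested, all lower, but each passed the filter through its DN libraries alone, as did 2 of the 7 erythroid genes. The T cell list summed to 2.90 to 4.40 and 0.977 to 1.90 CPM, and its 1 tested gene, Cd4, was lower but likewise passed the filter through DN alone. Stromal, endothelial and follicular dendritic cell genes overlapped between groups, at 6.99 to 9.33 and 6.11 to 8.07 CPM, with Emcn and Ccl21a at 0 and 1 of 4 tested genes lower. The dendritic cell list summed to 24.7 to 25.2 CPM in DN and 41.5 to 43.5 CPM in DP, most of it Flt3, with Xcr1 and Cd209a at 0. Of its 8 genes 3 were tested, all higher, but 2 of them passed the filter through DP alone, and without a filter the median log2 change of the list was -0.68. That median covers 6 genes, and those with negative changes, Clec9a, Siglech and Ccr9, had only 2, 3 and 1 counts, all in DN. Genes of NK cells (0.419 to 1.02 and 0.296 to 0.549 CPM) and platelets (0 to 0.524 and 0.244 to 0.414 CPM) were too low to pass the filter. The part of any of these cells in the macrophage result was not tested.

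**Figure D4:**
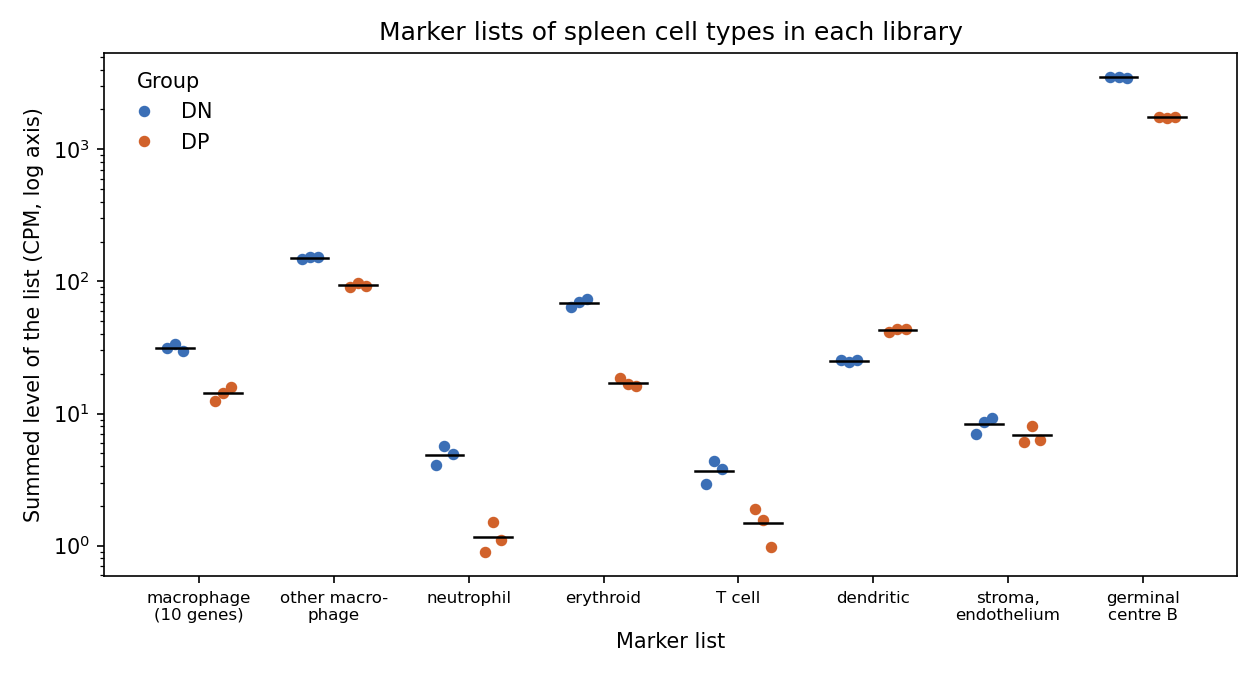
Summed level of each marker list in CPM on a log axis, with 1 point per library and a line at the group mean. The NK cell and platelet lists, of which no gene passed the count filter, are not drawn. DP lies below DN for the macrophage, erythroid, neutrophil, T cell and germinal centre B cell lists. DP lies above DN for the dendritic cell list and overlaps it for stroma and endothelium. The other macrophage and monocyte genes sum to a mean of 151 CPM in DN and 93.1 CPM in DP. Most of that sum is Spi1 (69.9 and 32.2 CPM) and Mpeg1 (45.0 and 33.8 CPM), which B cells express as well. That sum is therefore no measure of macrophage transcripts alone.

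The libraries held 8904415 to 11897360 gene counts in DN and 17509384 to 20538024 in DP, and the macrophage genes had changes below 0 with TMM and with each other scaling tried. With library totals alone, which move the median gene by -0.20, all 7 calls stood, and the share of called genes that were higher in DP over the whole table was 38.0% in place of 50.5%.

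By distance between centred log2 CPM profiles over the 6 libraries, the genes most like the mean of C1qa, C1qb and C1qc were Zfp120 (root mean square distance 0.058), Pyroxd1 (0.0673), B3gat3 (0.072), Acrbp (0.074) and Zfp654 (0.0773), of 9597 genes with at least 1 CPM. All 5 were lower in DP, by 0.90 to 1.12 on the log2 scale. None is a macrophage marker of the lists used here, and with 2 groups of 3 libraries the measure mostly reads the difference between the groups.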

How the data were processed

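The deposited values are raw read counts per gene, with 1 table per library. The submitters' processing notes name Trim Galore 0.6.6, STAR 2.7.10a, HTSeq 0.13.5 and the mm10 build without roles. The annotation, strand setting and any molecular identifiers were not given in the sources used here. Counted duplicates would leave counting intervals narrower than they should be. Per the labels' protocols, libraries were stranded and polyadenylated. The 5 summary rows that name no gene (9.47% to 12.9% of all counts) were left out.

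Libraries were grouped by title. DP was compared with DN in edgeR 4.0.16 (R 4.3.3): TMM factors, filterByExpr (minimum count 10), robust quasi-likelihood fit, no block, Benjamini-Hochberg adjustment over all tested genes, calls under 0.05. CPM use all gene counts and the TMM factors. Standard errors come from the fold change and its F statistic. The script was tested on simulated data with the same set dispersion for every gene. That test does not give error rates for low-count genes in these libraries. Libraries of a group differed by more than sampling noise (chi-square per degree of freedom 1.96 to 3.26). Positions and exon lengths came from GENCODE M21 (mm10). Counting intervals are exact, at 95%.

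The 10 genes and all lists were chosen with earlier results of these data known. Named genes were the 10, up to 4 tested genes of highest mean CPM per pathway list and, per marker list, its counts. The 5 most similar genes left out antigen receptor segments, pseudogenes and unnamed models. Genes outside these rules are marked or are those at or near 0 counts. Alternatives were other scalings, no filter, a stricter filter, DESeq2 1.42.0, limma-voom (limma 3.58.1), no robust weights, an adjusted p of 0.01, the replicate block, each library left out and, added after the data were seen, DP thinned to the DN depth and unfiltered refits for C1qa, C1qc and Spic.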

Additional observations from a re-analysis of the deposited data

How the results depend on the processing

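All 154 refits of single macrophage genes kept a change below 0, and none of the 7 calls was lost. The same 7 genes were called under each alternative, and 8 genes without DN replicate 2 or without DN replicate 3. Log2 changes ranged from -1.89 to -1.54 for Lyz2, from -0.98 to -0.64 for Hmox1 and from -1.19 to -0.59 for Vcam1. C1qa passed the threshold with upper-quartile factors (adjusted p = 0.0421), with library totals alone (0.0141) and without DN replicate 2 (0.0179) or 3 (0.0258), but not in the other refits, where its change reached -0.13. C1qc and Spic never passed. Replicate numbers were not taken to pair libraries of the same mouse, since no label says so; deviations of same-numbered libraries from their group means had correlations of 0.0562, -0.0061 and -0.0182 and not every library correlated best with its own number. With the replicate block 8589 genes were called against 8571, and 7 macrophage genes as before. The summed level was 33.7 CPM in DN with library totals alone, and 23.6 CPM in DN and 11.0 CPM in DP without Cd5l, the most abundant gene. C1qa, C1qc and Spic had 20 to 33 counts per group.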
